A study of Morus alba var. atropurpurea with 12 samples.

Results

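Among the root transcripts of cadmium-treated mulberry, 112 of 22727 listed transcripts had a mean near the control level at 5 mM and stood at another level at both 10 and 20 mM. Of these, 63 stood higher and 49 stood lower at the 2 upper doses. They were chosen by measured values, the FPKM of the same 12 libraries described here. FPKM is a read level per length of transcript and per size of library. With L the group mean of log2(FPKM + 1), a transcript was kept where it reached 1 FPKM in at least 3 libraries, where L at 5 mM lay within 0.25 of control, and where L at 10 and at 20 mM each differed from control by at least 0.5 in the same direction. In addition, all 6 libraries of 10 and 20 mM had to lie above, or all below, all 6 libraries of control and 5 mM. The changes against control and the separation of the libraries are therefore the criteria of choice. No size was set directly for the difference between 5 and 10 mM, but the limits against control together bound it from below. The values of these changes are a description. Counts of calls on the contrasts behind the choice are given further on only beside the share over all transcripts.

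The plants were seedlings of Morus alba var. atropurpurea, of the mulberry variety called Yuesang10, a tree whose leaves feed silkworms. All groups shared 3 months in soil, trimming of shoots to 10 cm and of roots to 2 cm, a move to full-strength Hoagland nutrient solution with 3 days of pretreatment, and harvest of roots at 20 days. The control received no cadmium, and the other groups received CdCl2 at 5, 10 or 20 mM, with 3 libraries in each of the 4 groups. The series text speaks of fruit and the sample labels of root, and without transcript names the tissue could not be checked against markers. The labels do not state that the libraries within a group come from different plants. The p-values therefore speak only of the spread among these samples, and that spread may be technical.

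Cadmium is a toxic metal that roots take up through carriers of nutrient metals such as iron, zinc and manganese. Inside root cells it binds to thiol groups, displaces nutrient metals from proteins and raises oxidative stress, and plants bind it with glutathione, phytochelatins and metallothioneins and store it in vacuoles. A transcript may follow the dose of a metal in a graded way or change only above some dose. The rule aims at the second shape, but it bounds the change at 5 mM only to within 0.25, so graded transcripts can be in the list. For example, one rising transcript moved by 0.21 from control to 5 mM, 0.35 from 5 to 10 mM and 0.40 from 10 to 20 mM on log2(FPKM + 1). The tables identify transcripts by accession-style identifiers alone, so no role is given to any of them, and pathway lists could not be applied.

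Each library listed between 19381 and 20071 transcripts. Absolute read depth is unknown, and the worth of 1 read, estimated from the steps between low values, differed 1.13-fold between the libraries and was highest in the control. On the first principal component of all 17782 tested transcripts, which held 20.3% of the variance, the replicate 1 library of 10 mM scored -21.1, on the side of control and 5 mM (-51.2 to -13.7). The other 10 mM libraries scored 33.2 and 23.9, beside 20 mM (30.3 to 46.3), and what set replicate 1 apart was not tested. Every statement on 10 mM below rests on 3 libraries of which 1 stood apart in this way.

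The number of transcripts at each step of the rule shows how narrow the choice was. Of the 17782 tested, 8653 lay within 0.25 of control at 5 mM. Upwards, 1422 transcripts had changed by at least 0.5 at both upper doses and 166 had all 6 upper libraries above all 6 lower ones, which is 0.934 percent of those tested. In all, 124 met both conditions, and at 5 mM 63 of them lay within 0.25 of control, 57 had already moved by at least 0.25 in the same direction and 4 had moved the other way. Downwards, 1090 had changed and 130 were separated (0.731 percent), and of the 106 that met both conditions 49 lay within 0.25 at 5 mM, 38 had already moved down and 19 had moved up. Among transcripts that met both conditions, those within 0.25 of control at 5 mM thus stood beside others already moved the same way. These others were 57 against 63 upwards and 38 against 49 downwards.

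The limits cut through a continuous range of values. Among the 63 that rose, the smallest change at an upper dose was 0.504, and the nearest transcript excluded by that limit alone had 0.498. The largest shift at 5 mM was 0.249 within the list and 0.256 for the nearest of the 61 transcripts excluded by that limit alone. Among the 49 that fell, the smallest change was 0.512 in size inside and 0.482 outside, and the shift at 5 mM was 0.244 inside and 0.255 for the nearest of 57 outside. A further 240 transcripts met every condition for a rise except the separation of all libraries, and 272 did so for a fall.

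The rising transcripts had moderate levels. Their mean over all libraries had a median of 15.1 FPKM and ran from 0.536 to 757 FPKM, against a median of 11.3 FPKM over all tested transcripts. Of the 63, 40 averaged 10 FPKM or more (63.5%, against 52.6% of all tested), and 5 averaged 100 FPKM or more (7.94%, against 10.6%). Their spread within groups had a median SD of 0.26 on the log2 scale, against 0.36 over all tested transcripts, and the rule of choice acts on this spread. The median difference from control was 0.05 at 5 mM, 0.85 at 10 mM (0.52 to 1.75) and 0.74 at 20 mM (0.50 to 3.64), where the medians over all tested transcripts were 0.07, 0.09 and 0.06. Most changes against control were small: in 40 of 63 the smaller of the 2 changes was under 0.75, and in 7 both changes reached 1.

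**Figure D1:**
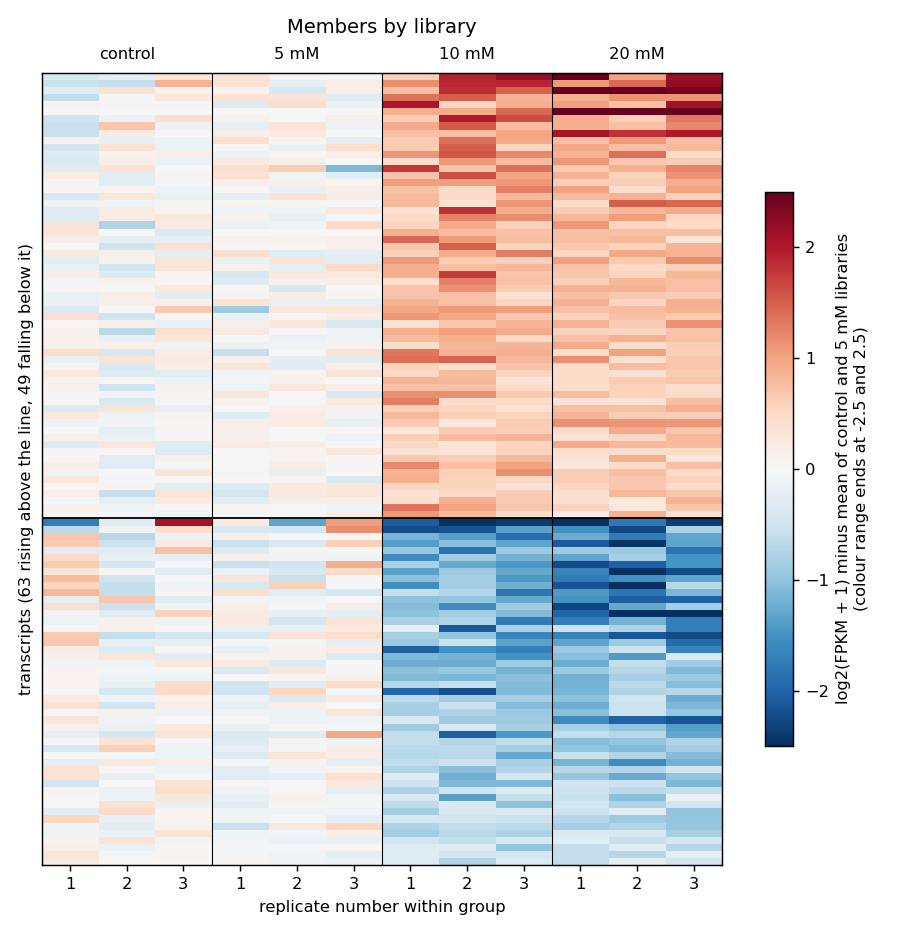
Difference of every transcript from its own mean over control and 5 mM, on log2(FPKM + 1), in each of the 12 libraries, for the 63 rising and the 49 falling transcripts. The rising set averaged between 0.82 and 0.96 in the 6 libraries of 10 and 20 mM, and the falling set between -1.19 and -0.91, in both cases by the rule of choice.

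The gap between the 2 sets of libraries was often narrow. Measured from the highest lower-dose library to the lowest upper-dose library, it had a median of 0.17 log2 units in the rising set, was under 0.1 in 19 of 63 and reached 0.5 in 1. The upper-dose library closest to the lower set was most often 10 mM replicate 1, in 15 of 63, followed by 10 mM replicate 3 in 14, whereas 10 mM replicate 2 held that place in 6. On the lower side, the library closest to the upper set was most often control replicate 3, also in 15. Replicate 1 of 10 mM was the lowest of its own group in 26 of the 63. Without this library, 108 transcripts met the rule, of which 60 were among the 63. Leaving out 5 mM replicate 3 gave 104 and leaving out 20 mM replicate 1 gave 100, and the cause of these increases was not tested.

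XM_010110229.1 ranked first by the naming rule among rising transcripts with a group mean of at least 5 FPKM. It measured 0.98, 1.25 and 2.25 FPKM without cadmium and 2.25, 1.70 and 1.57 with 5 mM, against 2.99, 8.98 and 10.89 with 10 mM and 16.30, 4.30 and 10.68 with 20 mM. All upper-dose libraries lay above all lower ones, but 10 mM replicate 1 lay much closer to the 2.25 FPKM of the lower set than to the other libraries of its dose. Group means were 1.49 ± 0.67, 1.84 ± 0.36, 7.62 ± 4.12 and 10.4 ± 6.0 FPKM (SD, n = 3), and the changes against control were 1.68 at 10 mM and 2.07 at 20 mM on the log2(FPKM + 1) scale.

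XM_010092198.1 ranked next. It measured 6.78, 6.57 and 19.78 FPKM in the untreated libraries and 13.61, 8.70 and 11.86 in those of the lowest dose, then 24.65, 41.27 and 41.97 in the 10 mM libraries and 23.03, 29.42 and 51.89 in the 20 mM libraries. The highest lower-dose library was control replicate 3, far above the other controls, and the upper doses began just above it. The mean rose from 11.0 ± 7.6 FPKM in control to 36.0 ± 9.8 at 10 mM and 34.8 ± 15.2 at 20 mM (SD, n = 3), a change of 1.75 and 1.66 log2 units.

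Tighter values were found in XM_010105012.1, which was singled out after its values were seen. It stood at 481.25, 385.82 and 459.96 FPKM without cadmium and 513.93, 513.65 and 484.31 with 5 mM, against 976.75, 978.72 and 996.01 with 10 mM and 722.32, 719.47 and 876.60 with 20 mM. The 3 libraries of 10 mM lay between 976.75 and 996.01 FPKM, replicate 1 included, and were above every library of 20 mM, which in turn were above the lower doses. The change against control was 1.16 ± 0.16 (SE) at 10 mM and 0.80 at 20 mM. Its difference of 20 minus 10 mM was -0.35, with a 95% interval of -0.71 to 0.01 and an adjusted p of 0.522 in limma.

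The falling transcripts included more abundant ones. Their mean level had a median of 13.6 FPKM and ran from 0.744 to 850 FPKM, and 10 of 49 (20.4%) reached 100 FPKM, against 10.6% of all tested transcripts. The median difference from control was -0.09 at 5 mM, -1.02 at 10 mM (-2.43 to -0.51) and -1.01 at 20 mM (-2.96 to -0.51). Both changes reached 1 log2 unit in 18 of 49, and the smaller change was under 0.75 in 17. In bulk roots, fewer cells of a type and less RNA per cell cannot be told apart for such falls. The gap between the 2 sets of libraries had a median of 0.22, was under 0.1 in 15 of 49 and reached 0.5 in 6. Here the upper-dose library closest to the lower set was most often 10 mM replicate 2 or 20 mM replicate 2, in 12 each, ahead of 10 mM replicate 1 in 10. On the lower side, control replicate 2 was closest to the upper set in 14 and 5 mM replicate 1 in 13.

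XM_010090588.1 ranked first among falling transcripts by the naming rule, and its values were widely spread. It measured 1.14, 4.64 and 28.74 FPKM in the untreated libraries and 7.37, 1.83 and 13.63 in those of the lowest dose, then 0.69, 0 and 0.35 in the 10 mM libraries and 0, 1.06 and 0.36 in the 20 mM libraries. All upper-dose libraries lay at or below 1.06 FPKM and all lower-dose libraries at or above 1.14, while the lower doses themselves spread over a range from 1.14 to 28.74. Group means were 11.5 ± 15, 7.61 ± 5.90, 0.347 ± 0.345 and 0.473 ± 0.539 FPKM (SD, n = 3). Read from the steps between its values, control replicate 1 and 20 mM replicate 2 held the same number of steps, 3, so that their FPKM values differed only through the scaling of the libraries.

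XM_010111755.1 ranked next among the falling. It measured 14.99, 22.87 and 32.80 FPKM without cadmium and 18.18, 17.84 and 55.76 with 5 mM, against 4.36, 4.66 and 8.98 with 10 mM and 7.90, 4.23 and 13.60 with 20 mM. The sets did not overlap, with 13.60 FPKM in 20 mM replicate 3 against 14.99 in control replicate 1. The mean fell from 23.6 ± 8.9 FPKM in control to 6.0 ± 2.6 at 10 mM and 8.58 ± 4.72 at 20 mM (SD, n = 3).

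The widest separation of the falling set belonged to XM_010104055.1, singled out after its values were seen. It measured 192.74, 170.87 and 170.91 FPKM in the untreated libraries and 184.17, 193.18 and 198.77 in those of the lowest dose, then 86.03, 82.82 and 88.87 in the 10 mM libraries and 81.01, 103.69 and 99.88 in the 20 mM libraries. Lower-dose libraries lay from 170.87 to 198.77 FPKM and upper-dose libraries from 81.01 to 103.69, with 10 and 20 mM intermingled. The change was -1.04 ± 0.15 (SE) at 10 mM and -0.91 at 20 mM against control, and the difference of 20 minus 10 mM was 0.13 with a 95% interval of -0.19 to 0.45.

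**Figure D2:**
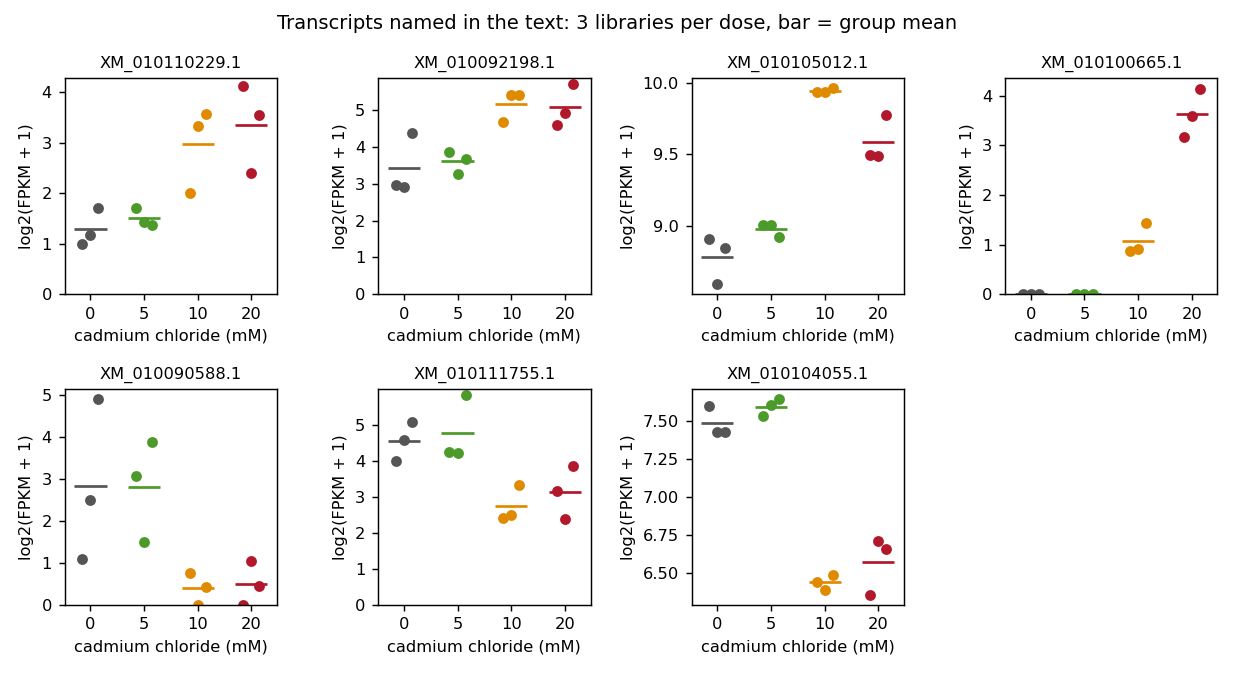
Level on log2(FPKM + 1) of the 7 named transcripts in each library (points) with group means (bars), by dose in mM, on axes that differ between transcripts and do not all start at 0. XM_010105012.1 and XM_010104055.1 show tight groups with a wide gap, while XM_010090588.1 spreads widely at the lower doses, over values of 1.14 to 28.74 FPKM.

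The most abundant transcripts of both directions were separated as well, by narrower margins than XM_010105012.1 and XM_010104055.1. The most abundant rising transcript measured 458.72, 725.29 and 506.71 FPKM without cadmium and 585.48, 635.73 and 628.81 with 5 mM, against 899.47, 845.40 and 751.13 with 10 mM and 968.58, 976.20 and 1103.10 with 20 mM. One control library, at 725.29, came close to the lowest library of 10 mM, at 751.13. The most abundant falling transcript measured 1094.72, 1359.59 and 1044.13 FPKM in the untreated libraries and 849.83, 1122.26 and 1004.21 in those of the lowest dose, then 708.46, 641.52 and 697.21 in the 10 mM libraries and 509.06, 535.61 and 633.88 in the 20 mM libraries. Its 5 mM libraries reached down to 849.83 FPKM, between control and 10 mM, and all 3 libraries of 20 mM lay below all 3 of 10 mM.

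Together the rising transcripts made up a small share of all FPKM, from 0.217 ± 0.008% in the untreated roots and 0.242 ± 0.006% with 5 mM to 0.405 ± 0.010% with 10 mM and 0.418 ± 0.015% with 20 mM (SD, n = 3). The falling transcripts made up 0.601 ± 0.014%, 0.591 ± 0.057%, 0.338 ± 0.044% and 0.319 ± 0.039% in the same order. The sets therefore crossed: the falling set held the larger share at the lower doses and the rising set at the upper ones, again by the way they were chosen.

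The difference between 20 and 10 mM is the comparison that the rule did not set, although it required both doses to pass the same limits. It was tested with limma over all 17782 transcripts. In the rising set 1 of 63 was called higher and 0 lower at an adjusted p under 0.05, where 0.00562 percent of all tested transcripts were called higher, that same transcript, and 0 percent lower. In the falling set 0 of 49 were called in either direction. At an unadjusted p under 0.05, 5 rising transcripts were higher and 1 lower at 20 mM, and 2 falling ones were higher and 6 lower, against 763 higher and 971 lower of all tested.

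The median difference of 20 minus 10 mM was -0.09 in the rising set and -0.08 in the falling set, against -0.05 over all tested transcripts. Of the 63 rising transcripts, 57 (90.5%) differed by less than 0.5 between the 2 doses, and of the 49 falling ones 37 (75.5%), where 78.0% of all tested transcripts did. All 3 libraries of 20 mM lay above all 3 of 10 mM in 6 of 63 rising and 1 of 49 falling transcripts (6.43 percent of all tested), and below in 5 of 63 and 9 of 49 (8.62 percent of all tested). These small differences do not show equal levels: the 95% interval of a single transcript had a median half-width of 0.53 in the rising and 0.60 in the falling set, against 0.64 over all tested. It lay wholly within 0.5 of no change in 7 of 63 (11.1%) and 6 of 49 (12.2%), against 6.42% of all tested. The rule of choice acts on the spread behind these widths.

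**Figure D3:**
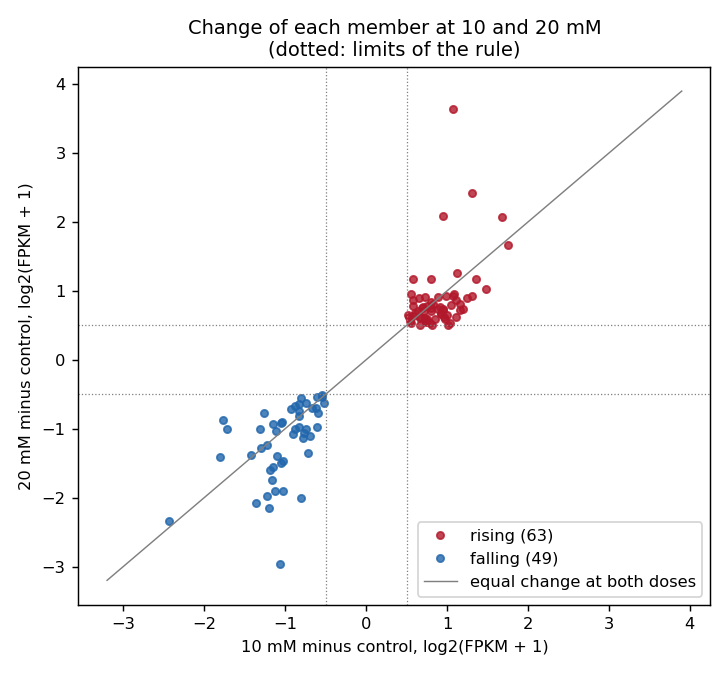
Change against control at 20 mM plotted over the change at 10 mM for each transcript, both on log2(FPKM + 1), with dotted lines at the limits of 0.5 and a line of equal change. Most points lie near that line, and the farthest point is XM_010100665.1 at a change of 3.64 at 20 mM. Below the line lie 40 of 63 rising transcripts, where 9901 of all 17782 tested transcripts were lower at 20 than at 10 mM.

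The transcript called at 20 against 10 mM was XM_010100665.1, named here after its values were seen. It was listed in no library of control or 5 mM, while the 10 mM libraries gave 0.84, 0.89 and 1.70 FPKM and the 20 mM libraries 7.99, 11.15 and 16.70 FPKM. The 3 dose levels of 0, 10 and 20 mM did not overlap. Its values were 1, 1 and 2 times a common step at 10 mM and 9, 13 and 19 times that step at 20 mM, which are read numbers if the step is 1 read. The transcript reached 1 FPKM in 4 libraries, the 3 of 20 mM and 10 mM replicate 3. It thus passed the filter for testing only through 20 mM, the group where it was high. The difference of 20 minus 10 mM was 2.56 ± 0.28 (SE), with an adjusted p of 0.0166 in limma. The error pools 6 libraries at 0, which have no spread, and in a fit of the 10 and 20 mM libraries alone, where the difference was again 2.56, the adjusted p was 0.222 and the call was lost. That fit also holds fewer libraries, and the cause of the loss was not tested. It was also lost without 5 mM replicate 3 (0.0506), 10 mM replicate 1 (0.0760) or 2 (0.0768), and 20 mM replicate 2 (0.147) or 3 (0.0607).

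A few others kept moving between 10 and 20 mM without passing the adjusted threshold. One rising transcript averaged 77.3 ± 19.8 FPKM without cadmium, then 90.2 ± 8.1, 147 ± 15 and 324 ± 30 FPKM with increasing dose (SD, n = 3), a difference of 1.13 ± 0.20 (SE) between the upper doses with an adjusted p of 0.111 in limma. Among the falling, one transcript averaged 194 ± 64, 170 ± 31, 89.5 ± 7.9 and 26.0 ± 15.7 FPKM (SD, n = 3), a difference of -1.89 ± 0.34 (SE) with an adjusted p of 0.111 in limma. Another averaged 14.9 ± 2.3, 13.2 ± 0.8, 8.13 ± 1.88 and 3.00 ± 0.87 FPKM (SD, n = 3), a difference of -1.19 ± 0.23 (SE) with an adjusted p of 0.133 in limma. In each of these 3 the libraries of 20 mM lay outside the range of 10 mM, beyond it on the side away from control.

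The remaining comparisons used the contrasts by which the transcripts were chosen, so that the choice itself fixed much of these counts. They are given with the background, and nothing is read from them. At 5 mM against control 0 of 112 were called by limma, where 0.0112 percent of all tested were called in either direction. At an unadjusted p under 0.05 the count was also 0, against 880 higher and 744 lower of all 17782, under a rule that kept every one of the 112 within 0.25 of control. At 10 mM against control 1 rising transcript (XM_010105012.1) and 1 falling transcript (XM_010104055.1) were called, where 0.0956 percent of all tested were called higher and 0.0337 percent lower. With the replicate number as a block, which the libraries of these groups share (correlations of 0.268, 0.170 and 0.176), neither was called. Of 20 alternatives, 8 kept the call of XM_010105012.1 and 11 that of XM_010104055.1. At 10 against 5 mM, 0 rising transcripts and 1 falling one, XM_010104055.1, were called, where 0.00562 percent of all tested were called higher and 0.0281 percent lower. This call was kept in 11 of 20 alternatives and was lost when any single library of 5 or 10 mM was left out. At an unadjusted p under 0.05 in that contrast, 55 rising and 44 falling transcripts passed, against 1253 higher and 793 lower of all tested.

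At 20 mM against control 6 rising and 17 falling transcripts were called by limma, where 0.579 percent of all tested were called higher and 0.692 percent lower. At 20 against 5 mM, 4 rising and 7 falling were called, where 0.107 percent were called higher and 0.202 percent lower.

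At low levels the separation rested on few reads. In 17 of the transcripts, 7 rising and 10 falling, all values of up to 30 steps were whole multiples of 1 step to within 0.1, so that read numbers could be recovered if 1 step is 1 read. Larger values were not required to be whole multiples. In 4 of the 10 falling transcripts the read numbers of the 2 sets of libraries touched or crossed although the FPKM values did not, and in 0 of the 7 rising ones. At most 10 reads were held by every library in 2 of the 7 rising and 5 of the 10 falling transcripts. In all, 17 rising and 13 falling transcripts had a mean under 5 FPKM.

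**Figure D4:**
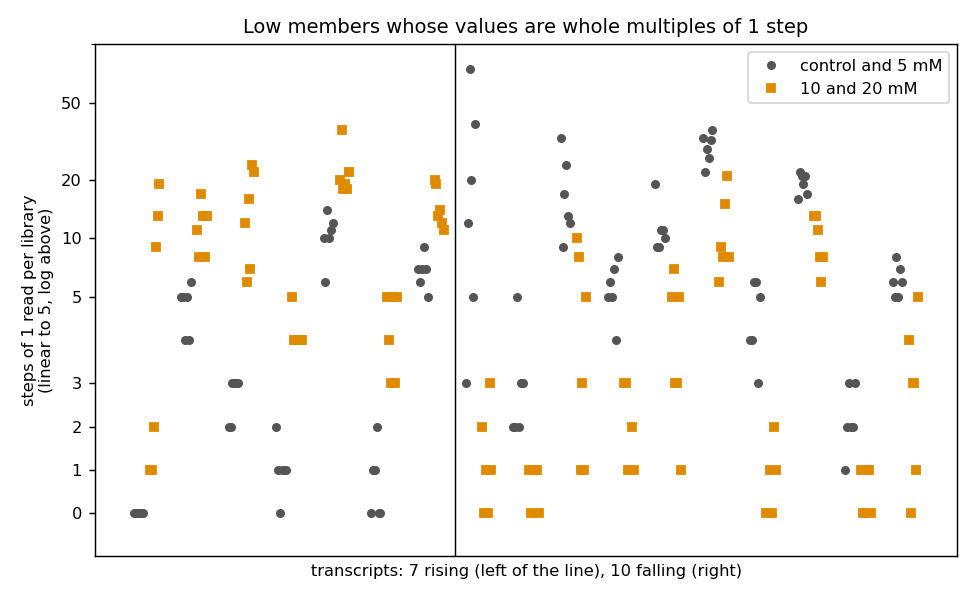
Steps of 1 read in each library, on an axis that is linear to 5 and logarithmic above, for the 17 low transcripts whose values of up to 30 steps are whole multiples of 1 step, with grey circles for control and 5 mM and orange squares for 10 and 20 mM. The 2 kinds of point are apart in all 7 rising transcripts and touch or cross in 4 of the 10 falling ones.

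Which transcripts were listed depended on the libraries in use. Leaving out each library in turn gave 66 to 108 rising and 53 to 112 falling transcripts, and 12 rising and 9 falling transcripts were in all 12 such lists, among them XM_010100665.1 and XM_010104055.1. XM_010105012.1 was in 11 of 12, XM_010110229.1 and XM_010092198.1 in 10, and XM_010090588.1 and XM_010111755.1 in 8. Without control replicate 2, 34 of the 63 rising and 33 of the 49 falling transcripts stayed listed, and without control replicate 1, 45 and 33. Without 10 mM replicate 1, 60 and 48 stayed. Median scaling gave 55 rising transcripts, of which 33 were in the list of 63, and 81 falling, of which 36 were in the list of 49. Only 8 rising and 9 falling transcripts stayed under a pseudocount of 0.1, both scalings and every list with 1 library left out.

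**Figure D5:**
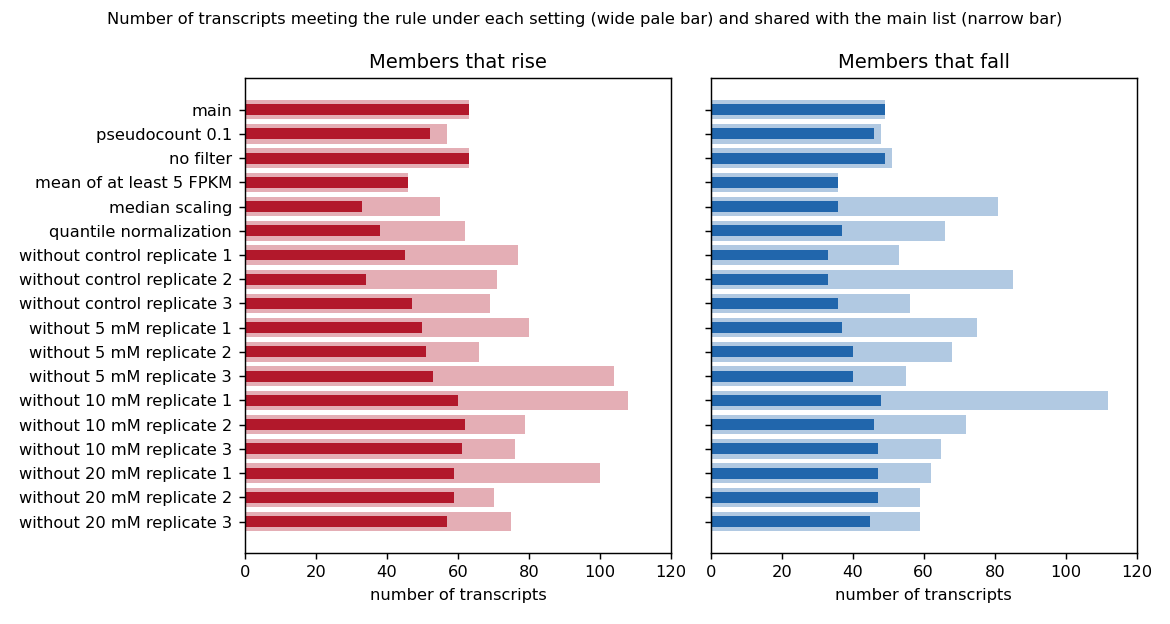
Number of transcripts meeting the rule under each setting (pale bars) and number shared with the lists of 63 and 49 (dark bars). The longest bars, 108 rising and 112 falling, are those without 10 mM replicate 1, and the fewest shared rising transcripts, 33, come with median scaling.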

How the data were processed

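Root RNA of 12 libraries in 4 groups of 3 was measured. For each library the authors deposited a table of FPKM per transcript, per the file headers, the aligner, the counter, the build and any filter being not given in the sources used here. Deposited values run from 0.01 FPKM, and a missing transcript was taken as 0. FPKM divides out library size, so a change in abundant transcripts can shift all others.

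Groups and replicate numbers came from the sample titles, and no 2 libraries held identical values. Values were analysed as log2(FPKM + 1), which understates changes of low transcripts. Tested were 17782 transcripts that reached 1 FPKM in 3 or more libraries, leaving out 4945. All 12 libraries were fitted with limma 3.58.1 (R 4.3.3), without a block and with its trend of variance on mean, with two-sided tests and Benjamini-Hochberg adjustment over all tested transcripts within each comparison, at a threshold of 0.05. The procedure was tested on simulated data. Whole reads were sought in 1090 sparse transcripts, where 85.6% of 7012 values were whole multiples of 1 step to within 0.1, and 78.6% of the 3537 values above 1.5 steps. FPKM is not a count, so no count test was used, and no counting interval is given.

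The members and lists were chosen with earlier results of these data known. The naming rule ranked transcripts by the smaller of their changes at 10 and 20 mM and took the first 2 per direction among those with a group mean of at least 5 FPKM, and other identifiers are named only where the text says so. Pathway lists and shoot markers, fixed as patterns in product descriptions, could not be applied without names. Same-numbered libraries of control and 10 mM deviated together, each pair with a correlation over 0.1, and the labels name no shared batch. Median scaling moved the median change of all tested transcripts from 0.09 to -0.03 at 10 mM, from 0.06 to -0.02 at 20 mM and from 0.07 to -0.01 at 5 mM. Tried instead were quantile normalization, median scaling, a pseudocount of 0.1, the unfiltered table, only transcripts averaging 5 FPKM or more, array weights, moderation without the trend, the replicate number as a block, the compared groups alone, and leaving out single libraries.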

Additional observations from a re-analysis of the deposited data

How the results depend on the processing

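The rule gave 63 rising transcripts, and 66 to 108 when 1 library was left out (the highest being 108 for 10 mM replicate 1, 104 for replicate 3 of 5 mM and 100 for replicate 1 of 20 mM). It gave 49 falling ones, 81 with median scaling and 53 to 112 with 1 library left out (112 for 10 mM replicate 1, 85 for replicate 2 of the control and 75 for replicate 1 of 5 mM). Each such list also has fewer libraries to separate. The other scalings, filters and pseudocount gave 46 to 63 rising and 36 to 66 falling. Similar counts did not mean the same transcripts: quantile normalization kept 38 of the 63 rising and 37 of the 49 falling. The 1 transcript called at 20 against 10 mM became 0 with a pseudocount of 0.1 and in a fit of only 10 and 20 mM. It became 2 with array weights, and 0 to 2 with 1 library left out. With a mean of at least 5 FPKM the count was also 0, but XM_010100665.1, at a mean of 3.27 FPKM, was then left out of the test. The replicate block kept the call of XM_010100665.1, and its adjusted p in limma ran from 0.00721 to 0.222 over 20 alternatives. The medians of 20 minus 10 mM stayed between -0.15 and -0.00 in the rising and between -0.20 and -0.02 in the falling set under all alternatives run. Of the counts in contrasts the rule used, the 23 called at 20 mM against control ran from 9 (without control replicate 1) to 37 (array weights), the 11 at 20 against 5 mM from 6 (without 5 mM replicate 2 or 3) to 54 (array weights), the 2 at 10 mM against control from 0 to 18 and the 1 at 10 against 5 mM from 0 to 50. With the replicate block, 0 were called at 10 mM against control, and in the same fit 0 at 10 against 5 mM, where the numbers did not pair the samples. The cause of these changes was not tested. Absolute depth is unknown.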

Other observations

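Some of the transcripts carry identifier numbers that are close to each other. Among the 112 there were 7 pairs with numbers differing by at most 3, made up of 11 transcripts, and in 6 of the 7 pairs both transcripts went in the same direction. How common such pairs are among all tested transcripts, and how often they go the same way there, was not counted. Nothing is therefore read from these numbers of pairs. What the order of the numbers stands for is not given in the files used here, and reads shared between near-identical transcripts could not be checked without sequences.

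One such pair joins XM_010104055.1 to a second falling transcript that measured 15.90, 10.78 and 14.26 FPKM without cadmium and 12.13, 14.83 and 15.92 with 5 mM, against 2.61, 4.18 and 3.54 with 10 mM and 6.92, 9.36 and 3.65 with 20 mM. Its level at 20 mM lay between that of 10 mM and that of the lower doses in 2 of 3 libraries, with a difference of 20 minus 10 mM of 0.72 ± 0.29 (SE) and an adjusted p of 0.462 in limma. The pair that went in opposite directions joins XM_010100665.1, at 0 in all libraries of control and 5 mM, to a falling transcript that measured 1.97, 2.00 and 5.03 FPKM in the untreated libraries and 1.91, 2.84 and 2.71 in those of the lowest dose, then 0.89, 0 and 0.90 in the 10 mM libraries and 0.94, 0.91 and 0 in the 20 mM libraries. A group of 3 rising transcripts formed 3 of the pairs among themselves. Their means at 10 mM were 73.7, 39.4 and 3.72 FPKM, and at 20 mM 65.2, 32.4 and 2.34 FPKM, lower than at 10 mM in each.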
